A study of Williopsis jadinii with 2 samples.

Results

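Of the 5880 genes measured in the yeast Cyberlindnera jadinii, 172 were already expressed on glucose and had at least 4 times that level on xylose. These xylose-boosted genes were chosen by the same values that are described here. A gene was selected on a coding length above 300 bases, at least 50 read counts over both libraries, a glucose level of 10 CPM or more, and a ratio of (xylose CPM + 1) to (glucose CPM + 1) of at least 4. CPM is a gene's count divided by the library total and multiplied by 1000000. The ratio is therefore the reason for their selection, and no value of it below is a test.

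Both libraries came from the wild-type strain NBRC0988, and no group carried a further genetic change. Cells for either library first grew for 15 h in glucose medium to an OD600 of 2 to 3 and were washed. They then spent 5 h at 30 °C in fresh rich medium with 2% glucose (the glucose library) or 2% xylose (the xylose library). There was 1 library per sugar, with 14728899 counts for glucose and 13061052 for xylose, so the spread between cultures was not measured and no p-value is given. Intervals cover counting error only. The reads carry no molecular identifiers and are not independent molecules, so the intervals may be too narrow even for that error.

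C. jadinii, long known as Candida utilis, is a fodder yeast that can use the pentose xylose as well as glucose. In yeasts that use xylose, the sugar is generally reduced to xylitol, oxidised to xylulose and phosphorylated, and then enters the pentose phosphate pathway. Glucose is the preferred sugar of most yeasts and represses many genes for other carbon sources and for respiration, some completely and some only in part. The files identify genes by running IDs alone, and 0 entries among the 6184 genes of the RefSeq table of strain NRRL Y-1542 matched any ID. The enzymes, transporters and regulators among the 172 genes are therefore not named, no pathway list could be counted, and no protein or promoter sequence is shown. The genes are described by their level, coding length and place in the run of IDs, and 2 are named by ID.

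The 172 genes were 3.43% of the 5012 genes that met the criteria on length, counts and glucose level. Over all 5643 genes with at least 50 counts, 284 (5.03%) had a ratio of 4 or more. Of these 284, 101 were left out because their glucose level was below 10 CPM, 8 because their coding length was 300 bases or less, and 3 for both reasons. With the sugars exchanged, 69 genes had a xylose level of at least 10 CPM and a ratio at or below the inverse of 4, which is 1.38% of the 4996 genes that could have met that mirror rule. Over all 5643 genes, 142 (2.52%) were at least 4-fold lower. The median log2 ratio was 2.58 for the 172 genes, a 5.97-fold ratio, and -0.27 for all genes compared. TMM scaling, which assumes that most genes do not change in expression, moved the median of all genes to -0.01. With TMM the lowest log2 ratio among the 172 genes was 2.26 and their median 2.84. The rule itself then gave 205 genes, of which 165 were among the 172, against 51 mirror genes.

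The boosted genes as a group took a small share of the glucose counts and a large share of the xylose counts. They held 257371 counts in glucose, or 1.75% of the library (95% Clopper-Pearson interval 1.74% to 1.75%). In xylose they held 1755504 counts, or 13.4% (13.42% to 13.46%), a 7.69-fold larger share. All genes with a larger share in xylose together gained 25.5 percentage points, and the 172 genes made up 11.7 of these, or 45.8% of the gain. The 69 mirror genes moved in the other direction, from 6.84% of the glucose counts to 0.696% of the xylose counts.

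The gain rested on many genes and on 1 very abundant one. Within the group's xylose counts, 6 genes held 25%, 26 held 50%, 58 held 75% and 88 held 90%. The most abundant gene alone held 12.6%. Without it the remaining genes went from 1.68% of the glucose counts to 11.7% of the xylose counts, a 7.01-fold larger share.

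**Figure D1:**
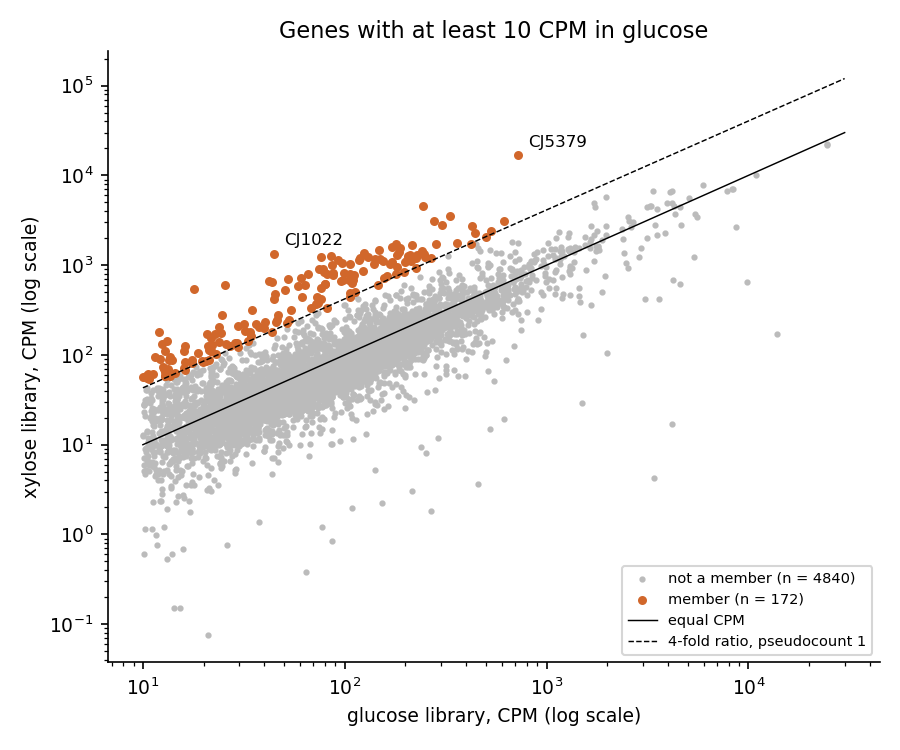
Level in the xylose library against level in the glucose library, both in CPM on log axes, for the 5012 genes with at least 10 CPM in glucose that met the length and count criteria (a point is a gene, from 1 library per sugar). The 172 orange points lie on or above the dashed 4-fold line by construction of the rule, and CJ5379 stands apart at 16950 CPM in xylose.

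CJ5379 was the boosted gene with the most reads in xylose. Its coding length is 1050 bases, and its product is not named in the sources used here. The glucose library held 10618 of its counts (721 CPM) and the xylose library 221384 (16950 CPM). As FPKM, the CPM per kilobase of coding length, these levels were 687 and 16143. The gene was already well expressed on glucose, at rank 180 of 5880 genes by counts, and reached rank 3 on xylose. Its share of all counts went from 0.0721% to 1.69%. The fold without a pseudocount was 23.5 (95% interval from the counts 23.1 to 24.0). It had 3.67 times the CPM of the boosted gene next to it in abundance.

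CJ1022 had the largest ratio of the 172 genes. Its coding length is 1686 bases. The glucose library held 656 of its counts (44.5 CPM, 26.4 FPKM) and the xylose library 17510 (1341 CPM, 795 FPKM). This gene moved from the lower part of the expressed genes in glucose, rank 3490 by counts, to rank 108 in xylose. The fold was 30.1 (27.8 to 32.6). By the fold without a pseudocount, a gene with a coding length of 357 bases was slightly ahead at 30.5, with 263 counts in glucose and 7109 in xylose, and the counting intervals of the pair overlap.

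The next boosted genes by xylose counts were a mixture of long and short coding lengths. The second had 3586 counts in glucose and 60339 in xylose over 1617 bases, with FPKM values of 151 and 2857. The third had 4905 and 45801 counts over 1509 bases, or 221 and 2324 FPKM. The fourth, at 363 bases, had 4081 and 40471 counts, or 763 and 8536 FPKM. Per length the fourth was thus above the second and the third in both libraries, although it had fewer reads than the second and the third in xylose. The fifth had 9092 and 40302 counts over 1089 bases, or 567 and 2833 FPKM, and its glucose level was the second highest of the 172 by counts.

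Small ratios were more frequent than large ones. The ratio lay between 4 and 5 for 53 genes (30.8%), between 5 and 6 for 34, between 6 and 8 for 38, between 8 and 16 for 42, and at 16 or more for 5 genes. The 3 genes just inside the threshold had ratios of 4.004, 4.005 and 4.01, and the 3 just outside had 3.97, 3.99 and 3.997. For 20 of the 172 genes the counting interval of the fold without a pseudocount reached below 4. For 36 of the other genes that met the remaining criteria it reached 4 or more. The rule uses the ratio with a pseudocount of 1, so these numbers reflect that difference in measure as well as counting error. At the edge of the glucose criterion, the 2 genes just inside had 10.05 and 10.3 CPM in glucose. The 2 just outside had 9.78 and 9.91 CPM, and 1 of the latter was 18.0-fold higher in xylose by the same ratio. The fewest counts of any boosted gene were 148 in glucose and 700 in xylose, and the median upper bound of a fold was 1.15 times its lower bound.

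In glucose the boosted genes ran from the weakest levels the rule admits to moderately high ones, and none was among the 100 most abundant genes. Their glucose FPKM ran from 1.83 to 966, with a median of 80.2 and quartiles of 16.8 and 214. The median over all 5012 genes was 60.1 FPKM. By FPKM, 0 of the 172 genes were in the top 100 of the glucose library, 3 in the top 250 and 24 in the top 500. In xylose their FPKM ran from 10.5 to 16143, with a median of 610 and quartiles of 110 and 1681, against a median of 48.2 over the 5012 genes. The xylose top 100 by FPKM held 28 of them, the top 250 held 71 and the top 500 held 95.

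The number of boosted genes per class of xylose level did not rise steadily up to the fullest class. In classes that each span a 2-fold range, 21 boosted genes lay between 64 and 128 FPKM, 15 between 128 and 256, 15 between 256 and 512, 21 between 512 and 1024, 37 between 1024 and 2048 and 28 between 2048 and 4096. Only 4 lay above 4096. The lower numbers between 128 and 512 FPKM rest on few genes and on the class limits used, and a second peak was not tested. All 5012 genes had 1 maximum, between 32 and 64 FPKM, and fell off from there to 291 genes between 256 and 512. The boosted genes were 65 of the 178 genes (36.5%) between 1024 and 4096 FPKM in xylose. Below 512 FPKM they were 82 of 4675 genes (1.75%). Selection on a ratio of at least 4 favours high xylose levels, so these shares follow in part from the rule.

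**Figure D2:**
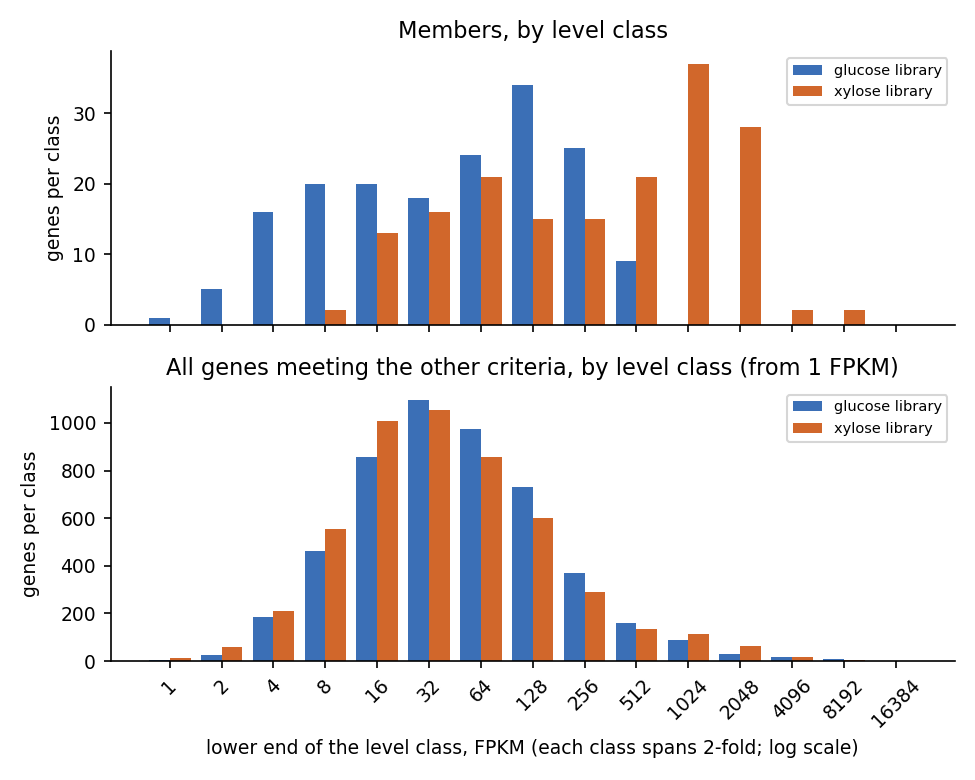
Number of genes per level class (each class spans a 2-fold range of FPKM, lower end on the x axis) in the glucose and the xylose library, for the 172 boosted genes and for the 5012 genes that met the other criteria, from 1 library per sugar. The boosted genes peak at 34 genes between 128 and 256 FPKM in glucose and at 37 genes between 1024 and 2048 FPKM in xylose. In xylose, 21 lie between 64 and 128 FPKM and 15 in the class above, a difference of few genes that was not tested.

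The genes above and below 512 FPKM in xylose, a division made after the values were seen, differed in coding length as well as level. The 90 genes at or above it had a median of 208 FPKM in glucose and 1664 FPKM in xylose, and a median log2 ratio of 2.90. Their median coding length was 522 bases, and 52 of the 90 (57.8%) had 600 bases or less. The 82 genes below it had medians of 15.5 FPKM in glucose and 93.3 FPKM in xylose, and a median log2 ratio of 2.35. Their median coding length was 1540.5 bases, and 7 of them (8.54%) had 600 bases or less. FPKM divides by coding length, so shorter genes stand higher on this scale at an equal count. Among all genes that met the other criteria, the median coding length was 684 bases at or above 512 FPKM in xylose and 1302 bases below it. The abundant range held 11.96% of all xylose counts and the other range 1.48%.

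Short coding lengths were frequent among the boosted genes. Coding length was used by the rule only through the minimum of 300 bases, and it cancels in the calculation of a fold. Whether length affected the read counts differently in the glucose and the xylose library was not tested. The 172 genes had a median coding length of 883.5 bases, against 1257 bases for the 5012 genes that met the other criteria. Of the genes above 300 and up to 600 bases, 59 of 649 (9.09%) were boosted. Of the longer genes, 113 of 4363 (2.59%) were. The genes up to 600 bases thus made up 34.3% of the boosted genes and 12.9% of the genes that met the other criteria.

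The share of boosted genes did not fall steadily with length. It was 3.57% between 600 and 900 bases, 1.99% between 900 and 1200, 1.64% between 1200 and 1500, 3.41% between 1500 and 2000, 2.06% between 2000 and 3000 and 2.67% above 3000 bases. The mirror genes had another profile. Up to 600 bases there were 2 mirror genes among 658 (0.304%), and above 600 bases there were 67 among 4338 (1.54%). The median log2 ratio of all 649 shortest genes was -0.22, against -0.31 over all 5012 genes, so the typical short gene was near the others while 59 of them were 4-fold higher or more. At least 2-fold higher were 13.1% of the genes up to 600 bases and also 13.1% of those above 3000 bases. In the classes between, this share was 7.49% to 9.55%.

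**Figure D3:**
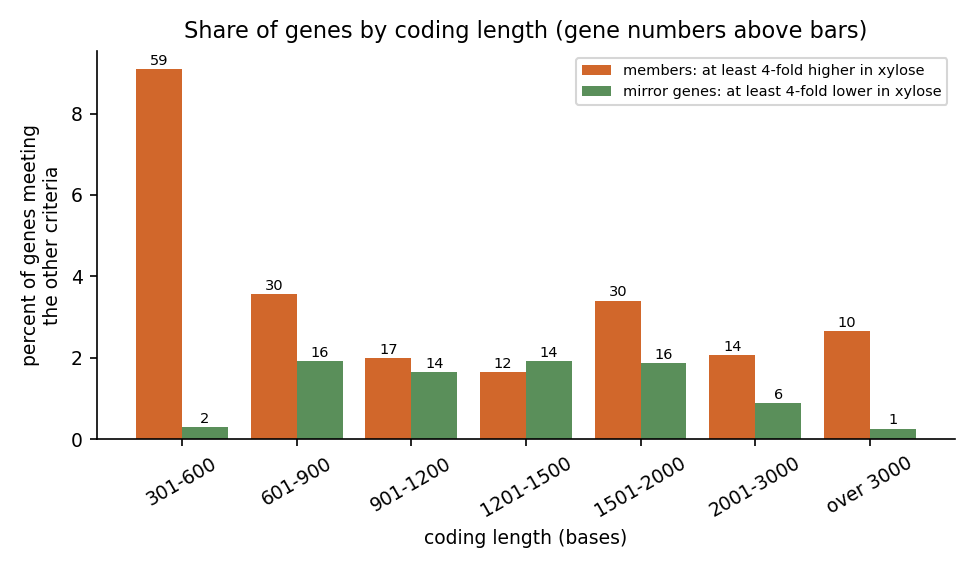
Percent of the genes meeting the other criteria that were at least 4-fold higher in xylose (orange, 172 genes) or, by the mirror rule, at least 4-fold lower (green, 69 genes), by coding length in bases, with the number of genes above each bar, from 1 library per sugar. The orange bar of the shortest class reaches 9.09% and the green one 0.304%, and no other bar passes 3.57%.

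The excess of short genes was largest at a middle level of expression in glucose. Between 50 and 200 CPM in glucose, 36 of 276 genes up to 600 bases (13.04%) were boosted, against 20 of 750 (2.67%) between 600 and 1200 bases and 12 of 1240 (0.968%) above 1200 bases. At 200 CPM or more the shares were 7.09%, 2.39% and 1.60% in the same order. Between 10 and 50 CPM they were 5.69%, 3.11% and 4.96%, so the long genes were nearly as frequent as the short ones among weakly expressed genes. The criterion of 10 CPM corresponds to 33.3 FPKM for a gene of 300 bases and to 3.33 FPKM for a gene of 3000 bases.

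The starting level on glucose also differed with length. Boosted genes up to 600 bases had a median of 227 FPKM in glucose, 1.48 times the median of all genes of that length that met the other criteria (154 FPKM). In xylose their median was 1702 FPKM, 11.9 times that of all such genes (143 FPKM). Boosted genes between 1500 and 2000 bases started at a median of 13.7 FPKM in glucose, 3.13-fold below the median of their length class (42.8 FPKM), and reached 77.3 FPKM in xylose, 2.32-fold above it. The 10 boosted genes above 3000 bases had medians of 3.45 FPKM in glucose and 25.4 FPKM in xylose, beside 17.7 and 18.2 FPKM for all genes of that length. In all 4 length classes above 1200 bases the median boosted gene was below the median of its class in glucose and above it in xylose. The class between 600 and 900 bases showed the same, with 81.0 against 96.3 FPKM in glucose and 868 against 78.7 FPKM in xylose. Between 900 and 1200 bases the boosted median was above that of the class in glucose too (83.6 against 71.4 FPKM). The rule selects on the ratio of these same levels, so selection itself favours such a pattern.

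**Figure D4:**
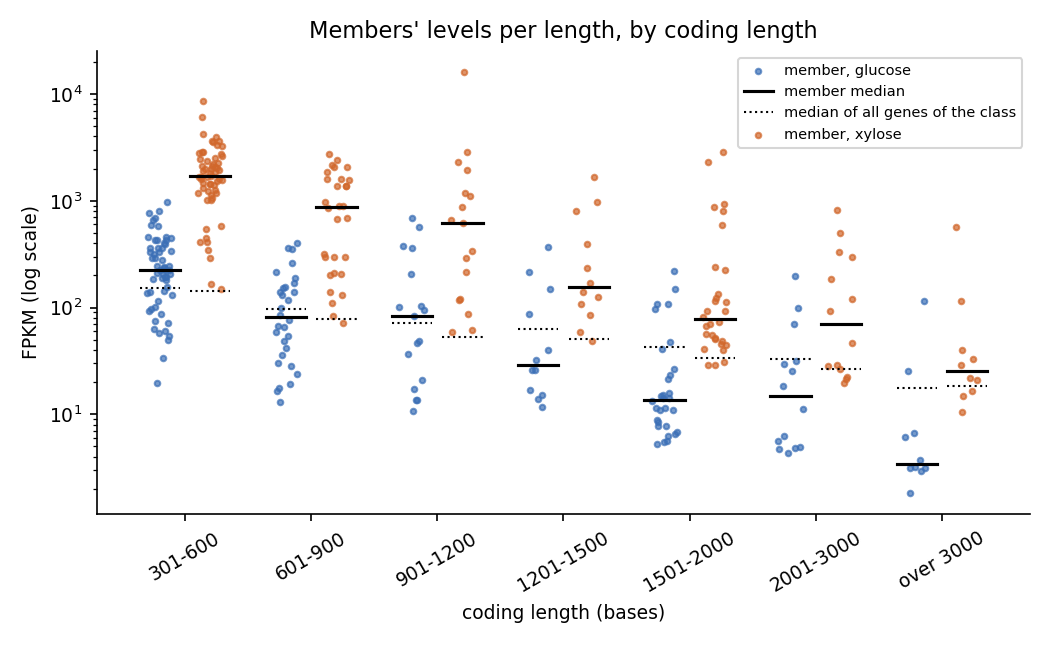
FPKM (log scale) of each of the 172 boosted genes in the glucose (blue) and xylose (orange) library, by coding length in bases, from 1 library per sugar. Solid lines are the medians of the boosted genes and dotted lines the medians of all genes of the class that met the other criteria; the solid line in glucose lies above the dotted one up to 600 bases (227 against 154 FPKM) and well below it above 3000 bases (3.45 against 17.7 FPKM).

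The ratios of the boosted genes varied with coding length, without a steady order. The median log2 ratio was 2.81 up to 600 bases, 2.90 between 600 and 900, 2.61 between 900 and 1200, 2.25 between 1200 and 1500, 2.45 between 1500 and 2000, 2.18 between 2000 and 3000 and 2.39 above 3000 bases. The 3 classes up to 1200 bases thus had higher medians than the 4 longer ones. Ratios of 8 or more were found, in the same order, for 19 of 59, 14 of 30, 5 of 17, 0 of 12, 8 of 30, 1 of 14 and 0 of 10 genes. The class between 1500 and 2000 bases was in this respect close to the shortest class. Across the 172 genes, log2 coding length and log2 ratio were correlated with a Pearson r of -0.27 and a Spearman rho of -0.32. Across all 5012 genes these were -0.0013 and 0.033. The points of either correlation share both libraries and genes are not replicates, so these values are a description.

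The ratio did not move steadily with the level in glucose. The median log2 ratio of the boosted genes was 2.36 between 10 and 20 CPM in glucose, 2.49 between 20 and 50, 3.16 between 50 and 100, 2.78 between 100 and 200 and 2.50 between 200 and 500 CPM. The highest median thus lay in the middle of the range. The share of genes that were boosted was 6.92% in the lowest of these classes, between 2.70% and 3.35% in the other 4, and 1.03% at 500 CPM or more, where 3 of 290 genes were boosted. At 500 CPM or more, 19 of the 290 genes (6.55%) were at least 4-fold lower in xylose. Between 10 and 20 CPM, 19 of 549 genes (3.46%) were, and in the classes between 20 and 500 CPM the share was 1.56% to 3.27%.

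The boosted genes were spread over the whole run of IDs. Each of the first 5 blocks of 1000 IDs held between 26 and 32 of them, and the last 880 IDs held 23. There were 12 runs of consecutive IDs, 11 of 2 genes and 1 of 3 genes, which together held 25 of the 172 genes (14.5%). Within a run the log2 ratios differed by 0.12 to 0.80. Xylose counts within a run differed by as little as 1.22-fold and as much as 24.6-fold. In 4 of the runs every gene had 600 bases or less, and 1 of these was the run of 3, with log2 ratios from 2.53 to 2.89. The files do not say whether IDs follow gene order on chromosomes, nor whether reads shared by overlapping or similar neighbours were split, and their part in these runs was not tested.

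The genes next to a boosted gene in the run of IDs were described with the boosted genes among them kept in. There were 330 such neighbours with at least 50 counts, and 25 of them were boosted genes themselves. At least 2-fold higher in xylose were 47 of the 330 (14.2%), beside 660 of all 5643 genes compared (11.7%). At least 4-fold higher were 32 (9.70%), beside 5.03% of all genes compared. The median log2 ratio of the 330 neighbours was -0.12, beside -0.27 for all genes compared. Among the 305 neighbours that were not boosted genes, a selection that removes the largest ratios by construction, 22 (7.21%) were at least 2-fold higher. The same selection from all genes compared left 5471 genes, of which 488 (8.92%) were at least 2-fold higher. At least 4-fold higher were 7 of the 305 (2.30%), beside 2.05% of the 5471. Without the boosted genes, the share at least 2-fold higher was thus below that of the 5471. The median log2 ratio stayed higher, at -0.16 for the 305 beside -0.30 for the 5471. These values are a description of neighbouring IDs in 2 libraries and were not tested.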

How the data were processed

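RNA from 1 glucose and 1 xylose culture sample of C. jadinii NBRC0988 was sequenced with paired 150-nt reads that keep the strand, per the labels' protocols. Reads were aligned with HISAT2 2.2.1, per the submitters' processing notes. Which tool counted the reads, with which strand setting, and on which genome build and annotation, is not given in the sources used here, so overlapping or near-identical genes may share reads. The authors deposited raw, whole-number read counts, per the file headers. The deposited FPKM values equalled the CPM per kilobase of coding length within a relative tolerance of 1e-06, with 0 exceptions. All coding lengths are multiples of 3 and hold no UTRs, and whether reads in UTRs were counted is not stated.

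Library totals served as sizes, with a pseudocount of 1 in each ratio. Python 3.11.15, pandas 2.3.3 and scipy 1.17.1 were used, with edgeR 4.0.16 (TMM) and DESeq2 1.42.0 (median of ratios) in R 4.3.3 for alternative scaling of the counts. Intervals are Clopper-Pearson, conditional on both counts for folds. Where a gene had 0 counts, up to 3 are allowed, which is 0.204 CPM for the glucose and 0.230 CPM for the xylose library. Application of the rule and the intervals were checked on simulated libraries with independent counts and counting error only. That check does not cover spread between cultures or reads that are not independent. The genes and the descriptions were chosen with earlier results of these data known. The 2 IDs are the boosted genes with the highest xylose CPM and the largest ratio. Other genes are given without ID, and those next in order of xylose counts were chosen after their values were seen. The 12 alternatives changed scaling, pseudocount, count minimum, CPM minimum, length minimum or fold threshold.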

Additional observations from a re-analysis of the deposited data

How the results depend on the processing

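No paired analysis was possible because there was only 1 library of each sugar, and for the same reason no replicate could be left out. With TMM or median-of-ratios scaling the boosted genes numbered 205 in both cases, held 14.4% of the xylose and 2.00% of the glucose counts, and had a median log2 ratio of 2.67 (TMM) or 2.69 (median of ratios). The mirror genes then numbered 51 and 50, and the boosted share of both lists was 80.1% and 80.4%, against 71.4% with total counts. With the 31 most abundant genes left out of the totals used for scaling, 166 genes met the rule. They held 13.35% of all xylose and 1.73% of all glucose counts, with a median log2 ratio of 2.57. A pseudocount of 0.1 gave 13.5%, 1.77% and 2.58 (178 genes), and a pseudocount of 5 gave 13.2%, 1.70% and 2.59 (151 genes). Dropping the count minimum or raising it to 500 changed none of these values. The criteria on glucose level and ratio already require more counts than either minimum, so neither change could alter the list. A glucose minimum of 5 CPM gave 13.8%, 1.78% and 2.60 (220 genes), and 20 CPM gave 13.1%, 1.695% and 2.64 (134 genes). With no length minimum the values were 13.83%, 1.81% and 2.57 (180 genes). A 3-fold threshold gave 14.9%, 2.18% and 2.32 (245 genes) and 149 mirror genes, and a 6-fold threshold gave 85 genes with 9.37%, 0.913% and 3.06, and 29 mirror genes. Under all 12 alternatives the share of boosted genes was higher up to 600 bases (6.32% to 10.3%) than above (1.01% to 4.08%). The log2 ratio ranged from 4.53 to 4.84 for CJ5379 and from 4.76 to 5.16 for CJ1022 over the 5 alternatives that can alter it. Depth limits the genes near the threshold, and variation between cultures was not measured.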

Other observations

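Which boosted genes stand at the top depended on the scale. Of the 20 boosted genes with the highest xylose CPM and the 20 with the highest xylose FPKM, 10 were the same. The median coding length was 1069.5 bases in the list by CPM and 427.5 bases in the list by FPKM, and 6 and 16 of the 20 had 600 bases or less. The 20 with the highest xylose CPM shared 14 genes with the 20 highest by glucose CPM and 3 with the 20 of the largest ratio.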
